A study of Mus musculus with 2 samples.

Results

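Dividing cortical progenitors made up 680 of the 21941 called cells of an embryonic mouse forebrain, 325 of 12855 in the library labelled Cyfip2 knockout and 355 of 9086 in the wild-type (WT) library. A cell was a member when it held at least 5 unique molecular identifiers (UMIs, each counting a captured RNA molecule) of the cell cycle genes Top2a, Mki67 and Cdk1 together and at least 1 UMI of Eomes, Neurog2 or Pax6, which mark the dorsal, excitatory lineage. Members held at most 1 UMI of Dlx1, Dlx2 and Dlx6os1 together, which mark the ventral, inhibitory lineage, and at most 1 UMI each of the microglial gene C1qb and the endothelial gene Cldn5. A called cell had 1000 UMIs or more, 500 genes or more and no more than 10% mitochondrial UMIs. Members were chosen by these measured UMI counts, so the levels of the rule's genes, and the comparison of members with other cells, are descriptions.

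The samples were a pool of forebrains from Cyfip2 knockout embryos and a pool from WT embryos, both at embryonic day 18.5. Each pool held 2 forebrains, was dissociated with papain and gave 1 droplet library. The sources used here do not give the allele, the deleted part of the gene, the strain or the sex of the embryos. With 1 library per genotype no difference has a replicate check, no p-value is given, and pool, library and genotype cannot be told apart. The 95% intervals in parentheses below are exact Poisson intervals for levels, exact conditional binomial intervals for ratios and exact (Clopper-Pearson) intervals for shares. They cover counting error only.

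The neocortical ventricular zone is lined by radial glia, neural stem cells that express Pax6, Sox2 and Hes genes and divide at the ventricle under Notch signalling. Radial glia produce intermediate progenitors, which switch on Neurog2 and then Eomes (Tbr2), divide mostly in the subventricular zone and give rise to glutamatergic neurons. Near birth the radial glia also begin to produce glia, and progenitors with Egfr, Olig1 and Olig2 appear. Cyfip2 and its paralogue Cyfip1 encode alternative subunits of the WAVE regulatory complex, which links the GTPase Rac1 to branching of actin filaments by the Arp2/3 complex.

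The cycle genes that define these cells fall into classes with known promoter elements. Genes of G2 and mitosis often carry a CHR element (TTTGAA) near the start site together with CCAAT boxes, and genes of S phase often carry E2F sites (here TTTCCCGC, TTTGGCGC or TTTCGCGC). In RefSeq's promoter table for build GRCm38.p6, searched on both strands over 250 bases before any listed start, 15 of the 41 matched genes of a list of 50 G2 and M phase genes held TTTGAA (36.6%), against 18.3% of all 27025 genes. CCAAT stood in 32 of the 41 (78.0%), against 37.5% of all genes, and both strings stood in 13 of the 41 (31.7%), against 6.45% of all genes. An E2F string stood in 2 of the 41 (4.88%), against 1.78% of all genes. All 3 cycle genes of the rule, Top2a, Mki67 and Cdk1, held both TTTGAA and CCAAT. Of 14 matched histone genes (of 17 listed), 7 held TTTGAA (50%) and 12 held CCAAT (85.7%). For the S phase list only 34 of 44 genes (77.3%) had a promoter in the table, too few for a share. A match is a string of letters, not a shown binding site, and a missing match says only that these letters are not in the window. Windows of 150 bases before the start are shown, 5′ to 3′ on the gene's strand with the matched letters in capitals, because these genes show the elements of each class. Hmgb2 (a DNA-bending chromatin protein, chr8:57511693-57511842, + strand) and Ube2c (the E2 enzyme of the anaphase-promoting complex, chr2:164769779-164769928, + strand) belong to the G2 and M phase list. Mcm6 (a subunit of the replicative helicase, chr1:128359706-128359855, − strand) and Hells (a chromatin remodeller, chr19:38930840-38930989, + strand) belong to the S phase list.
Hmgb2: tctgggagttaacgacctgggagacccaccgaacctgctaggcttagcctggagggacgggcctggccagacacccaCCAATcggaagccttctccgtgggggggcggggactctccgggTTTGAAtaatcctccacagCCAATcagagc
Ube2c: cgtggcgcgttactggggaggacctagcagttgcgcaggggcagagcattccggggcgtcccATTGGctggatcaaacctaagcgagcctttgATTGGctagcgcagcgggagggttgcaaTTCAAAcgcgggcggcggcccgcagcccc
Mcm6: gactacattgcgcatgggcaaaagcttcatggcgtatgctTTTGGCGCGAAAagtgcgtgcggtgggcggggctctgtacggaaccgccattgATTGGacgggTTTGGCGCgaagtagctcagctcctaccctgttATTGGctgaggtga
Hells: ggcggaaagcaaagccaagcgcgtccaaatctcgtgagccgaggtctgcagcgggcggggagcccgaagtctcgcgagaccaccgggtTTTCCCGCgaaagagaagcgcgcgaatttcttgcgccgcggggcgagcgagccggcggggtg
The CHR letters begin 30 bases before the start in Hmgb2 and 29 bases before it in Ube2c, where they read TTCAAA because the match is on the opposite strand. Mcm6 holds 3 E2F matches, of which the first pair overlaps, and the nearest begins 47 bases before the start, and it also holds 2 CCAAT boxes, read as ATTGG. The Hells match begins 62 bases before the start. In the members Hmgb2 had 4436 CPM (UMI counts scaled to a common total) in the library labelled knockout and 4103 CPM in WT, Ube2c 1056 and 915 CPM, Mcm6 165 and 164 CPM, and Hells 160 and 149 CPM.

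Members were 2.53% (2.26 to 2.81) of called cells in the library labelled knockout and 3.91% (3.52 to 4.33) in WT, a ratio of 0.647 (0.555 to 0.754). The share of all cells that passed the cycle gate hardly differed, 8.39% (1079 cells) in the library labelled knockout and 8.51% (773 cells) in WT, a ratio of 0.987 (0.899 to 1.08). Among these cycling cells the members took 30.1% (27.4 to 33.0) in the library labelled knockout and 45.9% (42.4 to 49.5) in WT. The others left the gate by their Dlx UMIs in 662 and 366 cells, for want of a cortical UMI in 87 and 48 cells, whatever their C1qb and Cldn5, and by C1qb or Cldn5 alone in 5 and 4 cells. A whole forebrain holds cortex and ganglionic eminence together, so these shares depend on how much of each entered the pool. The part of dissection in them was not tested.

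The cells just inside and just outside each gate were few. With exactly 5 cycle UMIs there were 15 members in the library labelled knockout and 24 in WT, in which the G2 and M phase list took 1.34% and 0.774% of UMIs. With exactly 4 there were 12 and 21 cells outside, at 0.464% and 0.552%. A single Dlx UMI was held by 43 and 33 members, with the inhibitory neuron gene Gad2 at 22.9 and 30.0 CPM. The cells with 2 Dlx UMIs, just outside, numbered 13 and 4 and had Gad2 at 56.7 and 59.4 CPM. Exactly 1 cortical UMI was held by 19 and 17 members, and 48 and 35 cycling cells that met every other condition, C1qb and Cldn5 included, held none and lay outside.

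The members were deeply sequenced. They held 5984222 UMIs in the library labelled knockout and 7590556 in WT, with medians of 17982 (range 1193 to 53368) and 20213 (range 1590 to 82873) UMIs per cell, against 8273 and 9998 over all called cells. They had medians of 4683 and 5055 genes and 1.32% and 1.49% mitochondrial UMIs. The whole libraries held 150828048 and 123978461 UMIs. The libraries shared 32 barcodes among called cells and 0 among members. The highest Scrublet scores, removed at 0.8% per 1000 cells, took 79 (24.3%) and 70 (19.7%) members. Over all called cells they took 10.3% and 7.27%, so members were taken more often. Members were kept whatever their score, with removal tried as an alternative.

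Genes that the rule did not use were set against the label. Sox2, a neural stem cell factor, had UMIs in 88.9% of members in the library labelled knockout and 87.9% in WT. The dorsal factor Emx1 had UMIs in 57.8% and 59.7%. More UMIs of the G2 and M phase list than of the S phase list were seen in 79.4% (74.6 to 83.7) and 77.2% (72.5 to 81.4) of members. The cycle gate uses mitotic genes, and the G2 and M phase list is the more abundant. It summed to 17585 CPM in the library labelled knockout and 16914 in WT, against 6300 and 5959 for the S phase list. That share therefore follows in part from the gate and the lists, and is a description. The rule's own Top2a, Mki67 and Cdk1 had per-cell medians of 12, 9 and 4 UMIs in both libraries. Top2a (the topoisomerase that untangles chromosomes) stood at 988 and 1018 CPM, Mki67 (a surfactant of mitotic chromosomes) at 626 and 652 CPM, and Cdk1 (the mitotic kinase) at 370 and 366 CPM.

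Some members carried markers of further lineages. At least 10 UMIs of an oligodendrocyte lineage list (Pdgfra, Olig1, Olig2, Sox10, Cspg4, Gpr17) were held by 21 members (6.46%, 4.04 to 9.71) in the library labelled knockout and 21 (5.92%, 3.70 to 8.90) in WT. All of these had Olig2, 19 and 20 had Egfr, and all had Sox2, whereas 9 and 4 had Pdgfra, 5 and 1 had Sox10, and 3 and 5 had Eomes. Most of them are thus members by Pax6 or Neurog2, with early glial transcription factors. The list includes Olig1 and Olig2, so their levels in these cells follow from the choice. At least 100 UMIs of a choroid plexus list led by Ttr (the thyroxine carrier of cerebrospinal fluid) were held by 1 and 3 members, which contained 96.4% and 99.7% of all Ttr UMIs. Ganglionic eminence markers at 10 UMIs or more stood in 5 and 3 members (summed list 112 and 93.8 CPM, with Nkx2-1 at 0 in the library labelled knockout). Microglial markers reached 10 UMIs in 0 and 0 members (7.19 and 3.16 CPM), with Cx3cr1, Csf1r and P2ry12 at 0 in the library labelled knockout and P2ry12 at 0 in WT. Vascular markers did so in 0 and 3 (9.53 and 30.3 CPM), meningeal in 2 and 5 (37.9 and 69.8 CPM), Cajal-Retzius in 1 and 3 (24.6 and 48.2 CPM) and erythroid in 0 and 3. In all, 30 (9.23%) and 35 (9.86%) members carried some such mark, and the results below are also given without them where that matters.

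Cyfip2 (ENSMUSG00000020340, chromosome 11, 46193850 to 46312859, − strand, build GRCm38), the gene named in the genotype, did not have fewer tags in the library labelled knockout. Its level in the members was 70.5 CPM (64.0 to 77.6; 422 UMIs) in the library labelled knockout and 36.2 CPM (32.1 to 40.8; 275 UMIs) in WT, a log2 ratio of 0.96 (0.74 to 1.19). UMIs were spread over 67.1% and 44.8% of members, with at most 7 and 6 in a cell, and no cell held more than 1.66% and 2.18% of them. After each member of at least 5000 UMIs (308 and 345 members, leaving out 17 and 10) was thinned to 5000, Cyfip2 was seen in 27.9% (23.0 to 33.3) and 13.6% (10.2 to 17.7). Since the deleted part is not known here, a tag outside it would check nothing, and the genotype is carried as the label gives it.

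Cyfip2 was also measured in cells of another type. These were microglia-like cells with at least 5 UMIs of C1qb, chosen with no limit on neural genes or Scrublet scores. Cyfip2 was held by 44.3% of 176 such cells of the library labelled knockout and 7.6% of 79 of WT. Their median depths were 15495 and 15681 UMIs. After thinning these shares were 17.0% (11.3 to 24.1) and 4.9% (1.0 to 13.7). Their level was 48.7 and 4.47 CPM, while barcodes under 100 UMIs had 73.4 and 76.3 CPM. The thinned share in members lay above that in C1qb cells in both libraries, with intervals that overlap. The share in C1qb cells was itself higher in the library labelled knockout. The part of free RNA in the difference between libraries was not tested.

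The Cyfip2 ratio took different values in the neural populations, and the difference between populations was not tested. Over all called cells the level was 84.0 and 83.9 CPM, a log2 ratio of 0.00. In dividing ganglionic eminence cells it was 72.3 CPM in the library labelled knockout and 35.9 CPM in WT (1.01), close to the values of the members. Eomes cells without any cycle gene had 68.8 and 64.1 CPM (0.10), and radial glia without any cycle gene had 62.6 and 48.2 CPM (0.38, −0.17 to 0.92). Among the members themselves, those with at least 2 Eomes UMIs (the Eomes group) had 73.1 and 48.4 CPM (0.60, 0.30 to 0.89), and those with Pax6 but no Eomes (the Pax6 group) had 67.8 and 22.6 CPM (1.58, 1.20 to 1.98). So in WT Cyfip2 was lowest in the Pax6 group of dividing cells, while the library labelled knockout had 62.6 to 73.1 CPM in all of these neural populations.

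**Figure D1:**
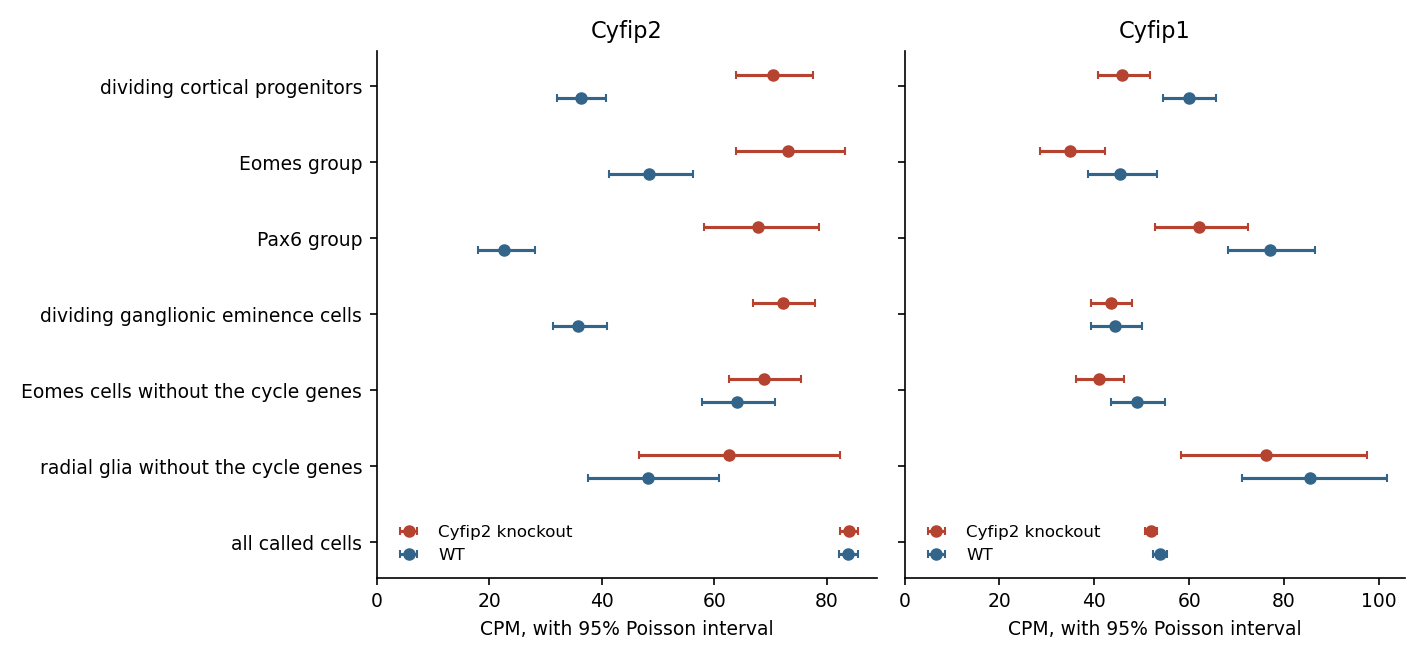
Levels of Cyfip2 and Cyfip1 (CPM, with exact 95% Poisson intervals that cover counting error only) in the members, their Eomes and Pax6 groups and the comparison populations. In each population the library labelled Cyfip2 knockout is drawn above WT. Cyfip2 in WT ranges from 22.6 CPM in the Pax6 group to 83.9 CPM over all called cells.

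Cyfip1 (ENSMUSG00000030447, chromosome 7, 55841745 to 55932602, + strand), the paralogue, went the other way. It had 46.0 CPM (275 UMIs) in members of the library labelled knockout and 59.9 CPM (455 UMIs) in WT, a log2 ratio of −0.38 (−0.60 to −0.16), and 18.5% and 21.4% of members held it after thinning. It was lower in the Eomes group (34.9 and 45.5 CPM) and in the Pax6 group (62.0 and 77.0 CPM) alike, and close to equal in dividing ganglionic eminence cells (43.5 and 44.4 CPM, −0.03). The C1qb cells had 271 and 290 CPM of it. Of 7 measured WAVE complex genes, Cyfip1 among them, 2 had an interval wholly below 0, against 11.9% of all measured genes, and 0 had one wholly above 0, against 8.22%, with a median of −0.06 against −0.02 over all measured genes. A gene counts as measured at 20 CPM or more in either library and 100 UMIs or more in both together. The second was the adaptor Abi1 at 36.6 and 44.0 CPM (−0.27, −0.52 to −0.02). The scaffold Nckap1 stood at 98.1 and 97.0 CPM, Abi2 at 67.7 and 68.8 CPM, Brk1 at 173 and 186 CPM, the WAVE proteins' genes Wasf2 at 56.7 and 51.8 CPM and Wasf1 at 36.3 and 37.7 CPM. The blood-cell forms Nckap1l and Abi3 had 0 and 5 UMIs and 0 and 0 UMIs.

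The shares of members with Eomes, Neurog2 and Pax6 were close in the libraries. Eomes, the T-box factor of intermediate progenitors, had UMIs in 55.7% (50.1 to 61.2) of members in the library labelled knockout and 51.5% (46.2 to 56.9) in WT, and in 45.1% and 38.8% after thinning. Neurog2, the proneural factor that starts neuronal commitment, had UMIs in 60.6% and 62.5%, and Pax6, the radial glial factor, in 96.0% and 94.4%. Eomes together with Pax6 was found in 52.6% and 47.9% of members, Pax6 without Eomes in 43.4% and 46.5%, and Eomes without Pax6 in 3.1% and 3.7%. All 3 factors were held by 47.1% and 43.7%. After thinning, Eomes together with Pax6 was found in 31.8% and 27.8%, and Eomes without Pax6 in 41 of 308 and 38 of 345 members. As levels, Eomes had 248 CPM in both libraries, Neurog2 312 and 279 CPM, and Pax6 291 and 283 CPM.

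**Figure D2:**
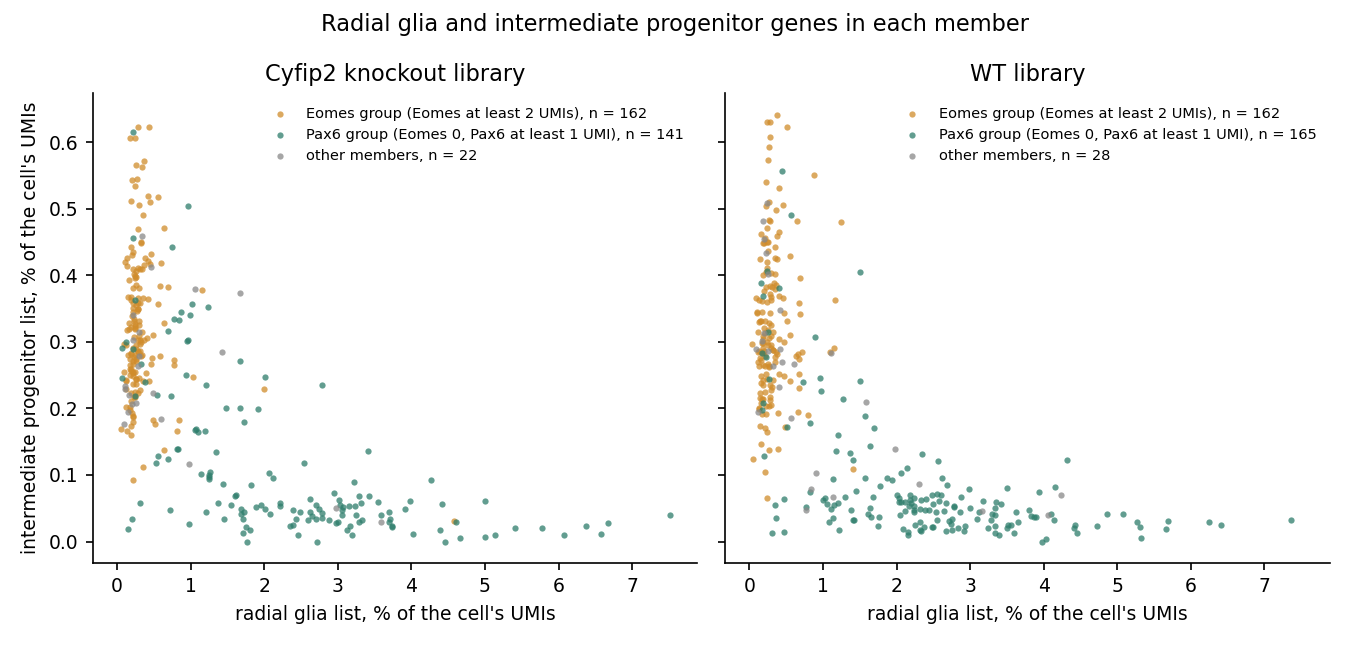
Each point is a member, placed by the share of its UMIs (%) in the radial glia list and in the intermediate progenitor list, with the library labelled Cyfip2 knockout left of WT. Spearman's rho between the lists is −0.63 and −0.73, and the Eomes and Pax6 groups lie at opposite ends in both libraries.

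Within each library the members formed a graded series that the cells' lists describe. Over the members, the share of UMIs in a list of 20 radial glia genes ran against that of 16 intermediate progenitor genes, with Spearman's rho of −0.63 in the library labelled knockout and −0.73 in WT, and against a neuronal differentiation list with −0.75 and −0.74. The intermediate progenitor and neuronal lists ran together (0.48 and 0.60). The S phase and G2 and M phase lists ran against each other (−0.40 and −0.31), and S phase ran with the histone genes (0.46 and 0.47). The radial glia list was nearly unrelated to the G2 and M phase list (0.01 and 0.04). The points are cells of 1 library each and share its depth and free RNA, so these are descriptions over 325 and 355 cells.

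The Eomes group and the Pax6 group show the genes behind that series. There were 162 and 162 members in the Eomes group, 141 and 165 in the Pax6 group and 22 and 28 in neither, and the groups had like depths (medians of 18400 and 21174, and 18325 and 20110 UMIs). Of 6823 genes measured in both libraries, 570 (8.35%) were at least 1.5-fold higher in the Eomes group in both libraries with intervals off 0, and 757 (11.1%) were lower. Eomes and Pax6 made the split, and Neurog2 belongs to the members' rule. Neurog2 had 542 CPM in the Eomes group and 41.2 in the Pax6 group of the library labelled knockout, and 553 and 37.0 in WT.

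Genes high in the Eomes group included many of neuronal commitment. Mfng, a Notch-modifying glycosyltransferase, had 122 CPM in the Eomes group and 11.2 in the Pax6 group of the library labelled knockout, and 120 and 9.39 in WT. Sstr2, a somatostatin receptor, had 153 and 17.3 CPM in the library labelled knockout and 176 and 9.94 in WT. Igfbpl1, a secreted protein of the IGF binding family (chromosome 4, 45809468 to 45826923), had 1764 and 223 CPM, and 1721 and 206 in WT. Lrrn3, a leucine-rich repeat membrane protein, had 108 and 8.09 CPM, and 101 and 9.39 in WT. Myt1, Cbfa2t3 and Onecut2, all transcriptional regulators, were the others with the highest ratios. Insm1, a zinc finger factor that drives delamination of basal progenitors, had 820 and 168 CPM, and 759 and 134 in WT. In the intermediate progenitor list 10 of 13 measured genes were higher and 1, Tfap2c, was lower, and in the neuronal list 10 of 16 were higher and 0 lower. Among all measured genes 8.35% were higher and 11.1% lower. Sox11, a neuronal SoxC factor, had 3545 and 961 CPM, and 3665 and 890 in WT.

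Genes low in the Eomes group included those of radial glia and astrocytes. All 19 measured genes of the radial glia list were lower in both libraries. Vim, the intermediate filament of radial glia, had 301 CPM in the Eomes group and 2419 in the Pax6 group of the library labelled knockout, and 351 and 2475 in WT. Fabp7, the brain lipid-binding protein, had 648 and 7178 CPM, and 519 and 6706 in WT. Aldh1l1, a folate enzyme used as an astrocyte marker, had 0.326 and 106 CPM, and 2.02 and 98.0 in WT. The extracellular matrix gene Tnc had 7.50 and 262 CPM, and 9.21 and 320 in WT, and the matricellular Sparc had 3.91 and 269, and 9.21 and 356 in WT. Aldoc, the aldolase of radial glia and astrocytes, had 10.4 and 361 CPM, and 6.05 and 368 in WT. Col12a1, Ccdc80, Clu and Id3 were the others with the lowest ratios. Of 13 gliogenic genes, 0 were higher and 8 lower, against 8.35% and 11.1% of all measured genes. Members with markers of further lineages were kept in this contrast. The Pax6 group held 83.7% of the members' Olig1 UMIs in the library labelled knockout and 75.7% in WT, and the Eomes group 1.37% and 4.11%. The part of the marked members in the gliogenic difference was not tested.

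Of 13 measured Notch genes, 8 were lower in the Eomes group, namely the receptors Notch1 and Notch2, the ligand Jag1, the glycosyltransferase Lfng and the targets Hes1, Hes5, Hey1 and Nrarp. Hes1, a repressor that holds cells in the progenitor state, had 15.0 CPM in the Eomes group and 168 in the Pax6 group of the library labelled knockout, and 15.3 and 207 in WT. Only Mfng and the Numb relative Numbl were higher in both libraries. The counts in this list and the next stand beside 8.35% higher and 11.1% lower of all measured genes. Of 16 cholesterol synthesis genes, 15 were lower in the Eomes group and 0 higher, with medians of −1.29 in the library labelled knockout and −1.13 in WT. Hmgcs1, which makes HMG-CoA, had 113 and 520 CPM, and 135 and 597 in WT. Idi1, the isopentenyl diphosphate isomerase, had 40.1 and 223 CPM, and 44.9 and 247 in WT.

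The cycle itself also differed between the groups, in S phase genes rather than mitotic ones. Of 43 measured S phase genes, 22 were higher in the Eomes group in both libraries and 0 lower, with median log2 ratios of 0.73 and 0.65. Of 50 G2 and M phase genes, 0 were higher and 3 (Cenpf, Tubb4b and Ckap5) were lower, with medians of −0.01 and 0.02. These counts stand beside 8.35% higher and 11.1% lower of all measured genes, so the 3 lower genes do not exceed the share of all genes. The dUTPase gene Dut had 740 CPM in the Eomes group and 296 in the Pax6 group of the library labelled knockout, and 726 and 301 in WT. Rrm2, the subunit of ribonucleotide reductase that limits dNTP supply, had 607 and 274 CPM, and 583 and 270 in WT. Per cell, the S phase list took a median 0.648% of UMIs in the Eomes group and 0.304% in the Pax6 group of the library labelled knockout, and 0.654% and 0.313% in WT. The G2 and M phase list took 1.69% and 1.65%, and 1.63% and 1.52% in WT. Histone genes followed S phase, with 10 of 16 higher and 1 lower. The cycle gate uses mitotic genes, so these shares describe only the cells past it.

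**Figure D3:**
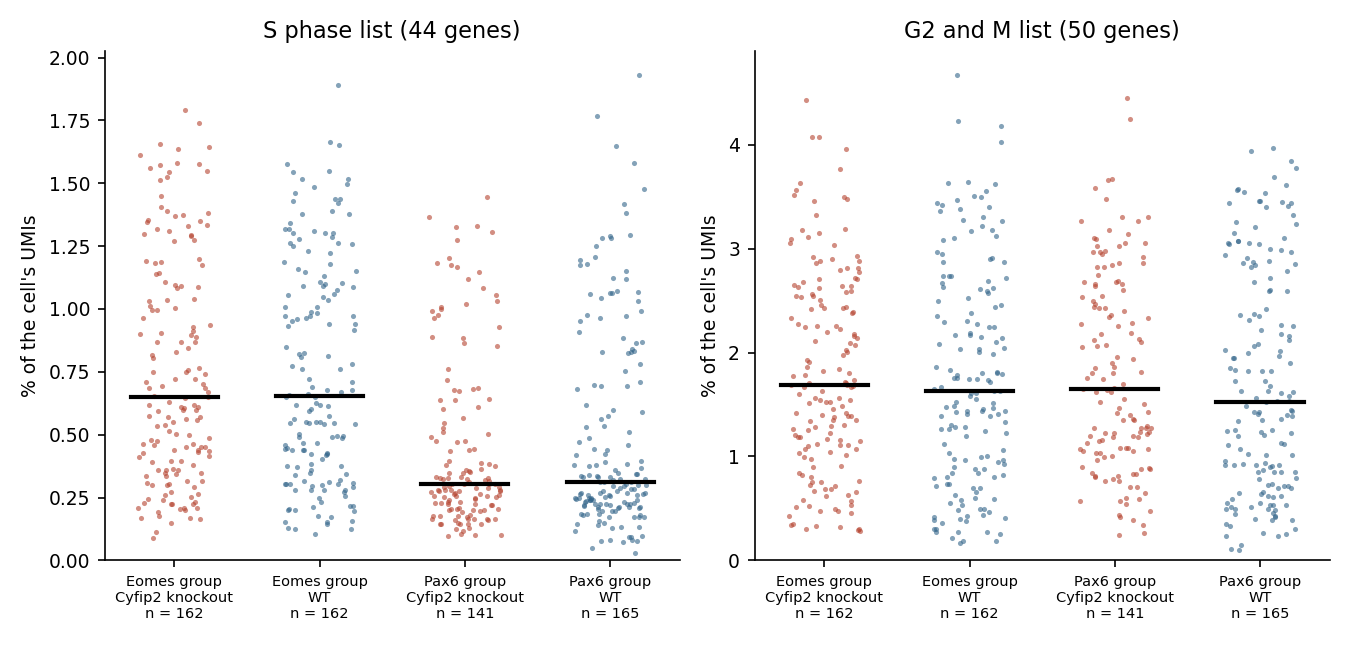
Share of each member's UMIs (%) in the S phase and the G2 and M phase lists, in the Eomes and Pax6 groups, with the library labelled Cyfip2 knockout left of WT and the median marked. The S phase medians are 0.648% and 0.654% in the Eomes group, against 0.304% and 0.313% in the Pax6 group, while the G2 and M phase medians lie between 1.52% and 1.69%.

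Of 17 measured G1 regulators, 4 were higher and 3 lower in the Eomes group in both libraries, against 8.35% and 11.1% of all measured genes. The D-type cyclin Ccnd1 had 77.0 CPM in the Eomes group and 205 in the Pax6 group of the library labelled knockout, and 70.8 and 153 in WT. Its partner kinases ran the other way, with Cdk6 at 338 and 162 CPM, and 335 and 178 in WT, and Cdk4 at 892 and 579 CPM, and 899 and 536 in WT. The transcription factor E2f1 had 90.0 and 25.4 CPM, and 93.9 and 35.1 in WT. Ccnd2 had 1049 and 920 CPM, and 1113 and 859 in WT, under 1.5-fold in both libraries. Of 21 measured genes whose human forms are mutated in primary microcephaly and related disorders, 4 were higher and 2 lower in the Eomes group in both libraries. The lower count is near the 11.1% of all measured genes, and 8.35% of all were higher. The higher genes were Cdk6, Ncapd3, Cenpj and Tubb5, and the lower were Aspm, a spindle pole protein, and Mfsd2a, a lipid transporter. Cyfip1 was lower in the Eomes group by −0.83 and −0.76 on the log2 scale. Cyfip2 was higher in the Eomes group of WT by 1.10 (0.71 to 1.49) and differed by 0.11 (−0.18 to 0.40) in the library labelled knockout.

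Between the libraries, few genes in the members differed by 1.5-fold. Of 6922 measured genes, 11 (0.159%) were higher in the library labelled knockout and 73 (1.05%) lower by at least 1.5-fold with an interval off 0, and the median over all measured genes was −0.02. An interval wholly above 0, whatever the size, was found for 569 genes (8.22%) and wholly below 0 for 821 (11.9%). Past 1.5-fold, the 30 and 35 members with markers of further lineages mattered for which genes were called. Without the members with choroid markers 10 genes (0.145%) were higher and 61 (0.882%) lower of 6917. Without any of the marked members 13 genes (0.187%) were higher and 83 (1.2%) lower of 6940, and 7 and 54 of these were also called over all members. That set, and the set without choroid markers, was chosen after the values were seen.

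**Figure D4:**
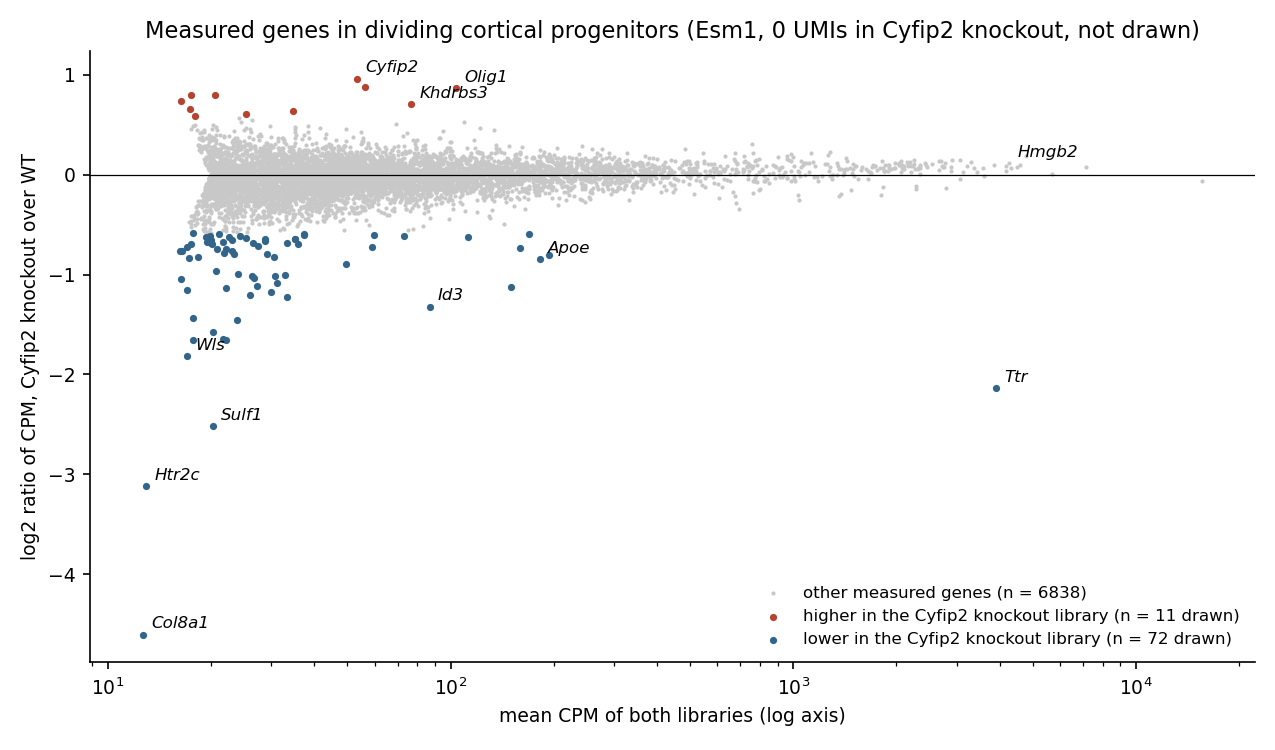
Each point is a measured gene, placed by its mean level (CPM, log axis) and its log2 ratio of the library labelled Cyfip2 knockout over WT in the members. Most of the 6922 genes lie near the median of −0.02, and Esm1, with 0 UMIs in the library labelled knockout, is not drawn.

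Bcl11b (Ctip2, chromosome 12), the factor of deep-layer corticofugal neurons, led the higher genes after Cyfip2. It had 72.7 CPM (435 UMIs in 115 members) in the library labelled knockout and 39.5 CPM (300 UMIs in 99 members) in WT, a log2 ratio of 0.88 (0.66 to 1.10). The cell with the most held 12.9% and 14.7% of its UMIs, and most members had none in either library. The difference lay in the Pax6 group (96.7 and 34.0 CPM, 1.51) more than in the Eomes group (56.1 and 43.8 CPM, 0.36), and after thinning 14.9% and 11.6% of members held it. Beside this, the C1qb cells had Bcl11b at 91.4 and 15.6 CPM and barcodes under 100 UMIs at 368 and 303 CPM. Its part in the difference was not tested.

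Further neuronal transcripts were set beside the C1qb cells. Runx1t1, a transcriptional co-repressor, had 42.3 and 27.1 CPM in members (0.64), with 51.6 and 11.9 CPM in the Pax6 group, 36.2 and 44.1 CPM in the Eomes group, and 54.9 and 12.7 CPM in C1qb cells. Among members without markers of further lineages, Meg3 (an imprinted long noncoding RNA) had 126 and 83.0 CPM (0.61) and the neurofilament gene Ina 31.0 and 19.4 CPM (0.68). Over all members Meg3 had 119 and 84.1 CPM in the Eomes group and 196 and 160 CPM in the Pax6 group, and Ina 33.9 and 18.4 CPM and 30.4 and 32.3 CPM. In the C1qb cells Meg3 had 328 and 23.8 CPM and Ina 45.9 and 3.72 CPM. The neuronal stathmin Stmn2 had 198 and 167 CPM in all members (0.25), and 253 and 73.7 CPM in C1qb cells. Other neuronal genes were higher in the C1qb cells of the library labelled knockout but nearly equal in members. Neurod6 had 101 and 46.2 CPM in C1qb cells and 367 and 362 CPM in members, Tubb3 260 and 114 CPM and 375 and 365 CPM, and Neurod2 80.0 and 38.0 CPM and 165 and 154 CPM. In barcodes under 100 UMIs Runx1t1 had 296 and 298 CPM, Ina 205 and 199 CPM and Stmn2 1826 and 1769 CPM. The part of free RNA in the members' differences was not tested.

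Khdrbs3 (an RNA-binding splicing regulator, chromosome 15) was the higher gene spread over the most members. It had 94.9 CPM in the library labelled knockout, in 230 members, and 58.4 CPM in WT, in 218 members (0.70, 0.52 to 0.88). It was higher in the Eomes group (104 and 59.9 CPM), the Pax6 group (85.1 and 59.1 CPM), dividing ganglionic eminence cells (97.4 and 72.4 CPM) and all called cells (149 and 117 CPM). In the C1qb cells it had 18.8 and 11.2 CPM. Slc15a2, a peptide transporter of glia, had 20.4 and 12.3 CPM (0.73), with 13.7 and 4.32 CPM in the Eomes group, 30.1 and 21.0 in the Pax6 group, and 7.11 and 3.78 over all cells. It had 5.91 and 0 CPM in the C1qb cells. Pwwp3b, Hist1h3d (a histone H3 gene with near-identical copies, so its count is uncertain) and Adamts18 had log2 ratios of 0.66, 0.60 and 0.59, and a single cell held 26.0% of the Pwwp3b UMIs of the library labelled knockout.

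Olig1 and Dll3 were also among the higher genes. Olig1, a basic helix-loop-helix factor of the oligodendrocyte lineage (chromosome 16), had 134 CPM in the library labelled knockout and 73.8 CPM in WT (0.86, 0.71 to 1.02), with UMIs in 37 and 43 members. The 21 and 21 members with oligodendrocyte lineage markers held 94.0% and 92.1% of them, at 1347 and 760 CPM. In the same cells Olig2 had 715 and 586 CPM, Pdgfra 64.2 and 17.7 CPM and Egfr 146 and 178 CPM. Dll3, an inhibitory Notch ligand, had 26.1 and 15.0 CPM in all members (0.80) and 0.07 on the log2 scale without the 30 and 35 members with markers of any further lineage, which held 50% and 20.2% of its UMIs. The marked members were chosen on Olig1 and Olig2 among others, so their Olig1 values are a description.

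The lowest ratios rested on a handful of cells. Esm1, a secreted proteoglycan, had 0 UMIs in the library labelled knockout and 179 UMIs in 7 members of WT, at least 47.0-fold lower when 3 counts are taken as the floor over the group. Col8a1, a short-chain collagen, had 6 UMIs in 2 members and 185 UMIs in 10 members (1.00 and 24.4 CPM, −4.60). Htr2c, a serotonin receptor of choroid plexus and neurons, had UMIs in 1 and 3 members (2.67 and 23.2 CPM). Sulf1 had 6.02 and 34.5 CPM (−2.52), Ttr 1447 and 6375 CPM (−2.14), Folr1 8.52 and 26.9 CPM (−1.66) and Trpm3 10.5 and 32.9 CPM (−1.65). A single cell held 81.0% or more of the UMIs of Htr2c, Sulf1, Ttr, Folr1 and Trpm3 in the library labelled knockout, and between 45.2% and 81.3% of their UMIs in WT. Without the 1 and 3 members with choroid markers Ttr turned to 1.28, Sulf1 to 0.32 and Folr1 to 0.053. The members with markers of further lineages held 45.3% and 45.5% of the UMIs of Ptgds, and 30.3% and 29.4% of those of Anxa2.

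Rspo3, an R-spondin that amplifies Wnt signalling (chromosome 10), had 10.2 CPM (22 members) in the library labelled knockout and 30.3 CPM (39 members) in WT (−1.57). Without the marked members it stood at 10.9 and 31.2 CPM (−1.52). Wls, which carries Wnt proteins to the surface (chromosome 3), had 7.52 and 26.5 CPM (24 and 42 members) and 4.98 and 21.2 CPM without the marked members. Otx2, a homeobox factor of caudal and medial forebrain and choroid plexus, had 9.53 and 25.8 CPM (−1.44), and the marked members held 47.4% and 32.7% of its UMIs. Anxa2 and Ptgds had ratios of −1.46 and −1.65. Tesc, a calcium-binding protein, had 15.5 and 45.9 CPM among members without other markers (−1.57), and was lower in the Eomes group (20.2 and 51.5 CPM) and the Pax6 group (18.1 and 37.5 CPM) alike. Among the same members Tnfrsf19 had 13.4 and 35.9 CPM, the brain proteoglycan Bcan 14.2 and 32.6 CPM, and the protease inhibitor gene Lxn 17.8 and 40.4 CPM. Their UMIs lay mostly in the Pax6 group.

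Id3, an inhibitor of differentiation induced by BMP signals (chromosome 4), was lower on a larger count. It had 49.6 CPM (297 UMIs) in the library labelled knockout and 124 CPM (941 UMIs) in WT (−1.32), and 31.4 and 84.3 CPM without the marked members. Nearly all of it lay in the Pax6 group, at 104 and 244 CPM, against 2.61 and 2.59 CPM in the Eomes group. Radial glia without the cycle genes went the other way, with 281 CPM in 56 cells of the library labelled knockout and 110 CPM in 100 cells of WT. Apoe, the glial lipoprotein, had 130 and 234 CPM in the members (−0.85).

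The radial glia list was lower in the library labelled knockout by small amounts. For this and the lists below, 8.22% of all measured genes had an interval above 0 and 11.9% below it. Of 19 measured genes, 12 had an interval below 0 and 0 above it, with a median of −0.20 against −0.02 over all measured genes, and −0.25 without the marked members. Hes1 had 83.9 and 114 CPM (−0.45), Hopx, a homeodomain-only protein of outer radial glia in humans, 41.3 and 56.0 CPM (−0.44), Tnc 119 and 167 CPM (−0.49), and Ttyh1 104 and 135 CPM (−0.37). Vim had 1259 and 1460 CPM (−0.21), Sox9 221 and 263 CPM (−0.25) and the glutamate transporter gene Slc1a3 234 and 273 CPM (−0.22). The genes with the highest CPM in the list, Fabp7 (3592 and 3635 CPM), Dbi (2356 and 2343 CPM) and Ptn (1495 and 1510 CPM), were close to equal, and Sox2 had 430 and 410 CPM (0.07). With members with and without Eomes given equal weight in both libraries the median was −0.089.

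The intermediate progenitor list leaned to higher values. Of 13 measured genes, 6 had an interval above 0 and 0 below it, against 8.22% and 11.9% of all measured genes. The median was 0.15, or 0.05 without the marked members, and lay between 0.027 and 0.17 over the alternatives. The Eomes group, in which most of these genes are high, was 49.9% of members in the library labelled knockout and 45.6% in WT. Its part in the difference was not tested. Insm1 had 525 and 441 CPM (0.25, 0.18 to 0.32), the growth arrest gene Gadd45g 265 and 217 CPM (0.29), the RNA-binding Elavl4 247 and 219 CPM (0.17), the antiproliferative Btg2 204 and 182 CPM (0.16) and Hes6 201 and 182 CPM (0.15). Neurod1 (73.5 and 73.6 CPM), Mfap4 (125 and 120 CPM) and Rnd2 (129 and 127 CPM) were close to equal. In the neuronal list 4 of 16 were above and 3 below, with Sox11 at 2403 and 2298 CPM (0.06), Unc5d at 61.2 and 49.3 CPM (0.31), Nfix at 712 and 811 CPM (−0.19) and the semaphorin receptor gene Nrp1 at 34.1 and 47.3 CPM (−0.47).

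Genes of patterning, gliogenesis and Notch signalling were mostly at or below equal. Of 11 patterning genes, 7 were below and 0 above, against 11.9% and 8.22% of all measured genes, with a median of −0.19. Lhx2, the selector of cortical identity, had 480 and 548 CPM (−0.19), Nr2f1 233 and 276 CPM (−0.24), Emx2 71.5 and 88.7 CPM (−0.31), the hedgehog pathway repressor Gli3 54.1 and 69.0 CPM (−0.35) and Zic2 22.1 and 39.1 CPM (−0.83). Emx1 had 74.4 and 71.7 CPM (0.05). Of 13 gliogenic genes, 7 were below and 2, Olig1 and Olig2, above. Nfia, which opens the gliogenic period, had 613 and 744 CPM (−0.28), Nfib 1393 and 1554 CPM (−0.16), Id4 137 and 170 CPM (−0.31) and Id1 74.9 and 92.1 CPM (−0.30). Olig2 had 77.4 and 63.2 CPM, a log2 ratio of 0.29 that was −0.15 without the marked members. Of 13 Notch genes, 6 were below, among them Notch2 (61.0 and 89.7 CPM, −0.56), Hey1 (17.9 and 28.2 CPM, −0.66) and Hes5 (131 and 151 CPM, −0.20), and 1, Dll3, was above. Notch1 itself had 149 and 158 CPM (−0.08).

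Cell cycle genes were nearly equal in the libraries. The counts above and below 0 stand beside 8.22% and 11.9% of all measured genes. Of 44 S phase genes, 9 were above and 0 below, with a median of 0.06, and of 50 G2 and M phase genes, 9 were above and 5 below, with a median of 0.03. Hmgb2 had a log2 ratio of 0.11 and Ube2c of 0.21, Cenpf (a kinetochore protein) had 803 and 842 CPM (−0.07), and the spindle protein gene Ckap5 274 and 313 CPM (−0.19). Pcna, the sliding clamp of replication, had 376 and 353 CPM (0.09), and Rrm2 464 and 418 CPM (0.15). The median share of UMIs per member was 0.475% and 0.460% for the S phase list and 1.65% and 1.58% for the G2 and M phase list. Of 16 histone genes, 12 were above and 1 below, with a median of 0.22, or 0.14 without the marked members. The linker histone gene Hist1h1a had 81.6 and 57.3 CPM (0.51), Hist1h2ae 727 and 626 CPM (0.22) and H2afx 819 and 705 CPM (0.22), while Hist1h2bc had 71.4 and 83.1 CPM (−0.22). Most of these genes have near-identical copies, so the split of reads between them is uncertain.

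Among G1 regulators 2 of 17 were above and 3 below, against 8.22% and 11.9% of all measured genes. Ccnd2 had 999 and 973 CPM (0.04), Cdk4 751 and 711 CPM (0.08) and Ccnd1 148 and 125 CPM (0.25), and Ccnd3 had 30.6 and 42.2 CPM (−0.46). The inhibitor gene Cdkn1c had 39.6 and 58.4 CPM (−0.56), or −0.20 without the marked members. Of 20 microcephaly genes, 2 were above and 1 below, with Aspm at 161 and 177 CPM (−0.14) and Cenpj at 51.6 and 42.6 CPM (0.28). Actin and cytokinesis genes, which act downstream of the WAVE complex, had 2 of 31 above and 6 below, with a median of −0.04. Actb had 5707 and 5687 CPM, and the Arp2/3 subunit gene Actr2 had 89.4 and 107 CPM (−0.26). Of 7 measured p53 target genes, 2 were above, Btg2 and Bax (224 and 201 CPM, 0.16).

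**Figure D5:**
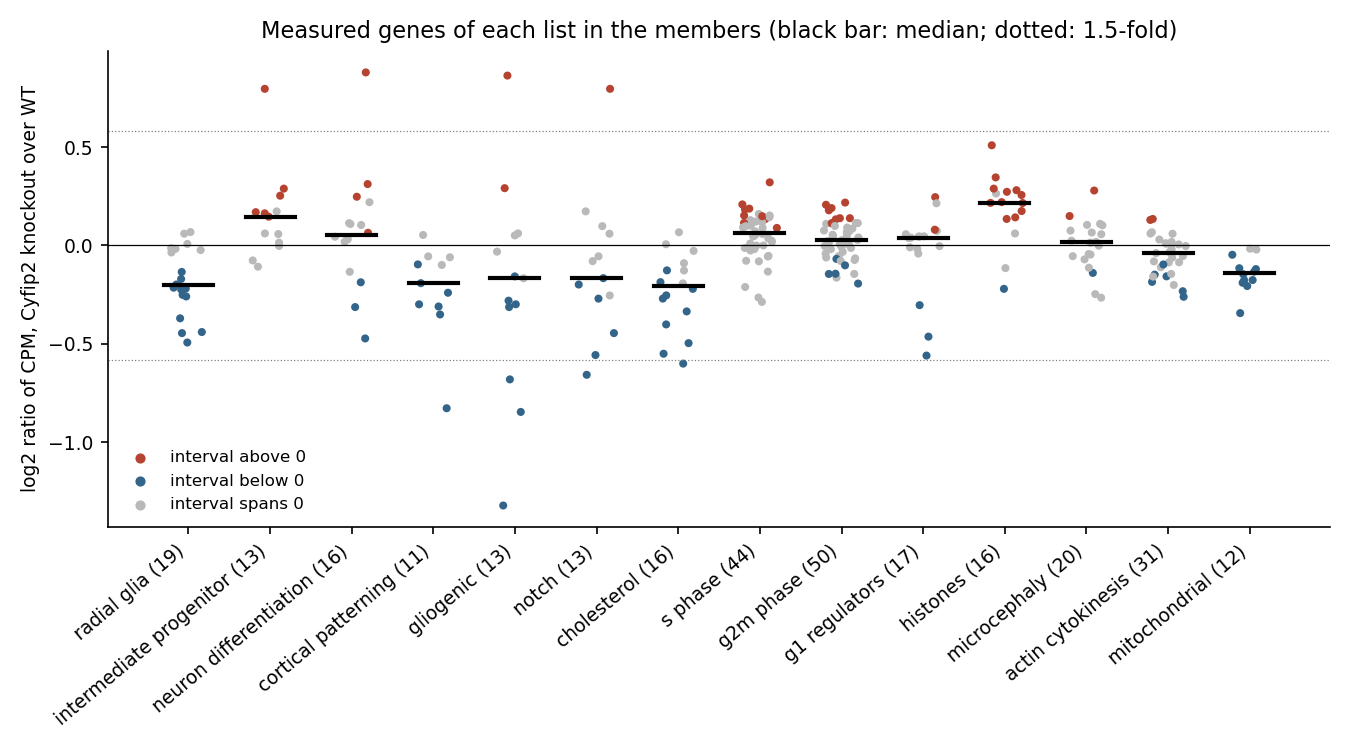
Log2 ratio of the library labelled Cyfip2 knockout over WT in the members for each measured gene of the lists named on the axis, with the list's median marked. List medians lie between −0.21 for cholesterol synthesis and 0.22 for histones, against −0.02 over all measured genes.

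The metabolic list with the lowest median was cholesterol synthesis. Of 16 measured genes, 10 were below and 0 above, against 11.9% and 8.22% of all measured genes. The median was −0.21, or −0.28 without the marked members. Hmgcs1 had 302 and 360 CPM (−0.25), Idi1 127 and 144 CPM (−0.19), Sqle 98.3 and 115 CPM (−0.22) and Insig1, the sensor that holds the pathway in check, 47.6 and 72.2 CPM (−0.60). The same genes were higher in the Pax6 group than in the Eomes group. Glycolysis and hypoxia genes had 3 of 18 above and 3 below, with the glucose transporter gene Slc2a1 at 22.4 and 35.0 CPM (−0.65). Unfolded protein response genes had 2 of 15 above and 2 below. Of 8 immediate early genes, which respond to dissociation, 1 was above and 3 below, with Fos at 68.0 and 81.0 CPM (−0.25). Of 12 mitochondrially encoded genes, 10 were below by small amounts, with a median of −0.14.

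Seen by group, more genes differed between the libraries in the Pax6 group than in the Eomes group. In the Pax6 group 79 (1.11%) of 7094 measured genes were higher in the library labelled knockout and 183 (2.58%) lower past 1.5-fold, against 27 (0.402%) and 107 (1.59%) of 6709 in the Eomes group. The Pax6 group of WT held 98.3% of the Esm1, 94.5% of the Ttr and 75.7% of the Olig1 UMIs of WT members. All called cells had 32 (0.455%) higher and 4 (0.0569%) lower of 7034, and dividing ganglionic eminence cells had 103 (1.55%) and 29 (0.436%) of 6657. Eomes cells without the cycle genes had 21 (0.308%) and 23 (0.337%) of 6823, and radial glia without them had 96 (2.29%) and 122 (2.91%) of 4196. The difference between groups was not tested.

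Compared with other cells of the same libraries, the members were set against dividing ganglionic eminence cells (596 and 344 cells with at least 5 Dlx UMIs). Of 6881 genes, 578 (8.4%) were higher in members and 323 (4.69%) lower in both libraries. Hopx had 41.3 CPM in members and 1.42 in eminence cells of the library labelled knockout, and 56.0 and 1.75 in WT. Aldoc, Tnc, Tgfb2 and Tfap2c were the other genes with the highest ratios. Nkx2-1, the selector of the medial eminence, had 0 and 69.2 CPM, and 0.922 and 68.9 in WT, and Sp9 had 3.68 and 326 CPM, and 1.32 and 343 in WT. Of 50 G2 and M phase genes, 0 were higher and 0 lower, and of 44 S phase genes 0 were higher and 2 lower. Of 16 histone genes, 0 were higher and 7 lower, with medians of −0.48 in the library labelled knockout and −0.82 in WT. Of 19 radial glia genes, 18 were higher and 1 lower. The eminence cells were chosen for at least 5 Dlx UMIs, and members for at most 1 and for a UMI of Eomes, Neurog2 or Pax6. The choice of cells thus enters the radial glia and ganglionic eminence differences, Hopx, Aldoc and Tnc included.

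Cells of the same lineage outside the cycle were a further comparison. The Eomes cells without the cycle genes numbered 567 and 480, and 1118 (15.6%) of 7178 genes were higher in members and 1014 (14.1%) lower. Ccnb1, the mitotic cyclin, had 317 CPM in members and 0.614 in those cells of the library labelled knockout, and 320 and 0.668 in WT. Trp53inp1, a p53-inducible gene, had 16.0 and 94.3 CPM, and 16.7 and 102 in WT. Of 16 neuronal genes, 15 were lower in members and 0 higher, and all 19 radial glia genes were higher. Those cells were chosen for 0 cycle UMIs and at least 2 Eomes UMIs, whereas 43.4% and 46.5% of members held Pax6 without Eomes. The choice of cells thus enters the cycle, neuronal and radial glia differences. Radial glia without the cycle genes numbered 56 and 100, and 681 (9.6%) of 7094 genes were higher in members and 722 (10.2%) lower, led by Hmmr, Ccna2, Sgo2a, Esco2 and Knl1 on the higher side. Of 19 radial glia genes, 16 were lower in members and 0 higher. That population was chosen for 0 cycle and 0 Eomes UMIs, at least 1 Pax6 UMI and at least 2 Slc1a3 UMIs. Slc1a3 is itself in the radial glia list, so the choice of cells enters this count. The members include the Eomes group, which that population leaves out.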

How the data were processed

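Forebrain cells of 1 library per genotype were counted by droplet RNA sequencing. The authors deposited raw UMI counts per gene and barcode, written by Cell Ranger 4 per the file headers and aligned to mm10 per the submitters' processing notes. The annotation release is not given in the sources used here. Here cells were called and members chosen by the rule, UMIs were summed over members per library and scaled to CPM, and ratios were given with 95% intervals that cover counting error only. Doublets were kept, and removal by Scrublet (scanpy 1.11.5) was an alternative. Calling was tried on simulated Poisson counts, the model that the intervals assume. Those counts hold no spread between cells or pools, so the trial says nothing on genes held by few cells. Python 3.11.15, numpy 2.4.6, scipy 1.17.1 and pandas 2.3.3 were used. Named genes were the 12 with the largest ratio past 1.5-fold in each direction, the rule's genes, Cyfip2 and Cyfip1, from each list the most abundant and those past 1.5-fold, the 8 with the largest Eomes over Pax6 ratio in each direction, and the 5 with the largest ratio against each other population. Sex-specific, globin and mitochondrial genes and gene models without a name were left out of the first. Other genes named were chosen after their values were seen. The members and lists were chosen with earlier results of these data known. Promoters are from RefSeq, gene positions from GENCODE (GRCm38). Some genes that the naming rule picks are not reported here.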

Additional observations from a re-analysis of the deposited data

How the results depend on the processing

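No paired analysis was possible because each group has 1 library. Of 521 values recomputed under the alternatives, 443 stayed within their limit, 66 moved further and 12 were counted as changed in sign. The limit was the interval where a value has one, and 1.5 times for counts. List medians have no interval of their own. All 12 changes of sign were among the 281 single-gene values. List medians that crossed 0 are not among the 12. They include S phase and histones, given below, and G2 and M phase, whose lowest median was −0.059. The alternative with gates after thinning chose members from cells thinned to 5000 UMIs and left out shallower cells. It also lowered the cycle gate to 3 UMIs, so its changes are not those of depth alone. Genes higher past 1.5-fold numbered 11, and became 19 with scaling without mitochondrial, haemoglobin and ribosomal protein genes, 38 with gates after thinning, 87, 4 and 179 with minimums of 5 CPM, 50 CPM and none, 59 and 0 at 1.3-fold and 2-fold, and 30 with every member weighted equally. Genes lower numbered 73, and became 117 without doublets, 354, 12 and 608 with those minimums, and 246 and 26 at 1.3-fold and 2-fold. Without doublets 1 G2 and M phase gene, against 0, was higher in the Eomes group. The radial glia median was −0.091 with a cycle gate of 8 UMIs and −0.089 with equal Eomes weights. The share of Eomes cells in the library labelled knockout became 62.6% with a cortical gate of 3 UMIs and, with gates after thinning, 61.7%, against 58.1% in WT. Gates after thinning moved the S phase median to −0.10, histones to −0.022 and mitochondrial genes to −0.076, and subtracting free RNA at 5% moved the last to −0.19. Signs changed with a cortical gate of 3 UMIs for Htr2c (0.75), Sulf1 (2.00), Ttr (2.01), Folr1 (2.33) and Trpm3 (0.50), with gates after thinning for Sulf1 (0.18) and Ttr (1.38), without members with markers of other cell types for Ttr (1.21) and Folr1 (0.031), and without choroid markers for Sulf1 (0.32), Ttr (1.28) and Folr1 (0.053). The cause was not tested. The last pair of alternatives and the equal weights were chosen after seeing the data. Cyfip2 stayed between 0.87 and 1.07, Cyfip1 between −0.47 and −0.34 and the ratio of member shares between 0.631 and 0.730. Depth limits genes under 20 CPM, where 100 UMIs are not reached.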
